A study of Mus musculus with 6 samples.

Results

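The Hox cluster genes are the homeobox transcription factor genes named Hoxa, Hoxb, Hoxc or Hoxd with a number, and they were measured here in cultured mouse neural stem cells with and without the microRNA miR-128. Members were chosen by symbol alone. All 39 Hox genes of the RefSeq mouse gene table had a row in the array table, out of 20263 genes that could be named there. They comprised 11 Hoxa, 10 Hoxb, 9 Hoxc and 9 Hoxd genes. They occupied 41 of 32025 transcript rows, since Hoxa10 and Hoxb3 had 2 rows each, and the row of higher mean stands for the gene. The cells came from CD-1 albino mouse embryos at E14.5 and were kept proliferating as neurospheres, free-floating balls of stem and progenitor cells in culture. One group of 3 samples was nucleofected, that is transfected by an electrical pulse, with a miR-128 mimic, a synthetic RNA that acts as the mature microRNA. The other group of 3 received miR-Control, so both groups went through nucleofection. RNA was taken 72 h later, and the replicates are biological triplicates per the design text, with no statement of whether embryos were pooled. No untreated cells were used here. The design text states that these cells lack miR-128 of their own, and the row values do not measure the delivered mimic, so uptake could not be checked.

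Hox genes are arranged in 4 clusters on different chromosomes. Within a cluster, genes at the low-numbered end are active further forward in the embryo and genes at the high-numbered end further back. In the developing nervous system their domains cover hindbrain and spinal cord, and the forebrain and midbrain normally lie in front of them. Retinoic acid opens and activates the clusters, Polycomb proteins keep them silent and trithorax proteins keep them active. The proteins bind DNA together with TALE homeodomain partners of the Pbx and Meis families. Below, groups 1 to 3 are called anterior, groups 4 to 8 central and groups 9 to 13 posterior.

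The clusters also hold microRNA genes, and their mature sequences are shown beside miR-128 to let the seeds be compared. They are taken from RefSeq annotation of assembly GRCm38.p6, with bases 2 to 8, the seed that pairs with targets, in capitals. The labels do not give the sequence of the mimic.
mmu-miR-128-3p: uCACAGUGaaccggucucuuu
mmu-miR-10a-5p: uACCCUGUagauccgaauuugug
mmu-miR-10b-5p: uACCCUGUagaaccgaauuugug
mmu-miR-196a-5p: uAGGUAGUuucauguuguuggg
mmu-miR-196b-5p: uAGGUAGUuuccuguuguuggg
The miR-10 pair share the seed ACCCUGU, and the miR-196 pair share AGGUAGU. Neither seed is that of miR-128, CACAGUG.

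Polycomb proteins are recruited in mammals to promoters rich in CpG dinucleotides, so the 250 bases before the annotated start are shown for 3 Hox genes, with CpG in capitals. Hoxa5 had the highest array signal of the 39 genes and Hoxa13 one of the lowest, and Hoxb8 lies in a stretch of Hoxb genes that were highest on 1 control array. Sequence and positions are those of RefSeq, GRCm38.p6.
Hoxa5, chr6:52204588-52204837, minus strand: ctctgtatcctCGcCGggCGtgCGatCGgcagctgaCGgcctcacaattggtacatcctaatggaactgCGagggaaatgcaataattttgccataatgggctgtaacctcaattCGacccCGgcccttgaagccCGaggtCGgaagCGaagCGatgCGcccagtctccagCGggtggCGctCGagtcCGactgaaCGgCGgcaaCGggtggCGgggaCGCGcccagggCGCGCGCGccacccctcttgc
Hoxa13, chr6:52260881-52261130, minus strand: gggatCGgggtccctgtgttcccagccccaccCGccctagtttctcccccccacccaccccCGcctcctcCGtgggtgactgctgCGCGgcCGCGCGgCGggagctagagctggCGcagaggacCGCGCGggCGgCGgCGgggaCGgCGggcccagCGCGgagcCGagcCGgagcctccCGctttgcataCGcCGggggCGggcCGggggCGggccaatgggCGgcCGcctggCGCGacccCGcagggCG
Hoxb8, chr11:96281655-96281904, plus strand: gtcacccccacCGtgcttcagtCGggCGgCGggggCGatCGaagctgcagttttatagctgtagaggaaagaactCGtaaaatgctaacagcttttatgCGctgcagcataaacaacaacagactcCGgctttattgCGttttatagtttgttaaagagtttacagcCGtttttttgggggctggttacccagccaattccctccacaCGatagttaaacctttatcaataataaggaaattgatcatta
The Hoxa5 stretch holds 28 CpG, that of Hoxa13 35 and that of Hoxb8 12. The promoter table held 24 promoters for 22 of the 39 Hox genes, with a median of 12.5 CpG and a range of 2 to 35, and a median GC content of 58.6%. Over all 32851 promoters of the table the medians were 6 CpG and 52.4%. The TATA sequence TATAAA was found on either strand in 4 of the 24 Hox promoters, or 16.7%, against 12.4% of all promoters. TGATTNAT, letters bound by Pbx and Hox proteins together, was in 2 of 24, or 8.33%, against 2.82%. AGGTCA, the nuclear receptor half-site read by retinoic acid receptors, was in 6 of 24, or 25%, against 14%. These motifs were searched on both strands, matches of different motifs may overlap, and a match describes letters only.

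Before the Hox values, the sample label was set against marker genes. The labels call the cells neuronal stem cells and name no brain region. Stem and progenitor markers were high, with a median percentile of 94.4 among all rows over 12 genes. Vim, an intermediate filament gene, had a mean log2 signal of 13.56, and Sox2, a stem cell transcription factor, lay at percentile 98.9. Prom1, the gene of the surface protein CD133, was the exception at percentile 20.9. Forebrain transcription factors were in the middle of the table. Their median percentile was 58.1, and 12 of 14 lay above the table median, with Lhx2, a cortical patterning factor, highest at 73.0. Hindbrain and spinal cord factors outside the Hox clusters had a median percentile of 41.8 with 4 of 12 above the table median, though their highest, Egr2 at 76.1, was above every forebrain factor. Midbrain and boundary genes had a median of 44.4 with 3 of 8 above it. Among other cell types, the 6 measured microglia and blood markers had none above the table median. Their percentiles ran from 9.95 for Ptprc to 47.3, with a median of 27.8. The 8 oligodendrocyte lineage genes had a median percentile of 57.7, with 5 above the table median, from 30.5 to Olig1 at 99.4. The 8 neuron markers had a median of 42.7, with 2 above the table median, from 11.7 to 99.6. The 6 astrocyte markers had a median of 52.1, with 3 above it, from 23.9 to 79.0. The 11 mesenchyme, neural crest and vessel markers had a median of 46.9, with 3 above it, from 22.9 to 68.5. The signal of a row depends on how well its probes bind as well as on RNA, so a percentile describes signal and not abundance, and no detection value was used. In RNA from whole cultures, fewer cells that express a gene and less RNA per cell cannot be told apart.

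Most Hox genes gave signal in the lower part of the table, and Hoxa5 and Hoxa7 stood highest. The median Hox gene lay at percentile 41.1 of all rows, where the median named gene lay at 54.2. Of the 39 genes, 9 were above the table median of 7.46 log2 units, and 30 were not. Against the median of the named genes, 1 row each, 6 of the 39 were above. By class, 8 genes lay below the 25th percentile (6.08), 22 between there and the median, 8 between the median and the 75th percentile (9.13), and 1 above it. As a reference for low signal, 25 measured genes of tissues outside the nervous system, such as insulin, albumin, rhodopsin and muscle genes, were read the same way. Their median percentile was 34.2, their range 3.90 to 61.7, and 4 of 25 were above the table median. The highest of them was Cela1, a pancreatic elastase gene, and 2 of the 39 Hox genes, Hoxa5 and Hoxa7, lay above it.

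The clusters differed in level. Hoxa had a median percentile of 49.1 and Hoxb of 48.8, against 38.9 for Hoxd and 22.0 for Hoxc. Hoxa also had the widest spread, from 12.5 to 77.2, while Hoxb kept to 29.8 to 59.0. Above the table median were 4 of 11 Hoxa, 3 of 10 Hoxb and 2 of 9 Hoxd genes, and 0 of 9 Hoxc genes. By position the median fell from 49.1 for the 8 anterior genes through 38.9 for the 15 central to 32.7 for the 16 posterior genes. That order was not kept within any cluster. In Hoxa the central genes had the highest median at 61.8, and in Hoxd the posterior genes did at 47.6. From anterior to posterior the Hoxb medians were 49.2, 47.5 and 48.8. Hoxc, the lowest cluster, has no anterior genes, and its medians were 18.3 for central and 32.5 for posterior genes. Genes are not replicates, and these orders are descriptions without a test.

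**Figure D1:**
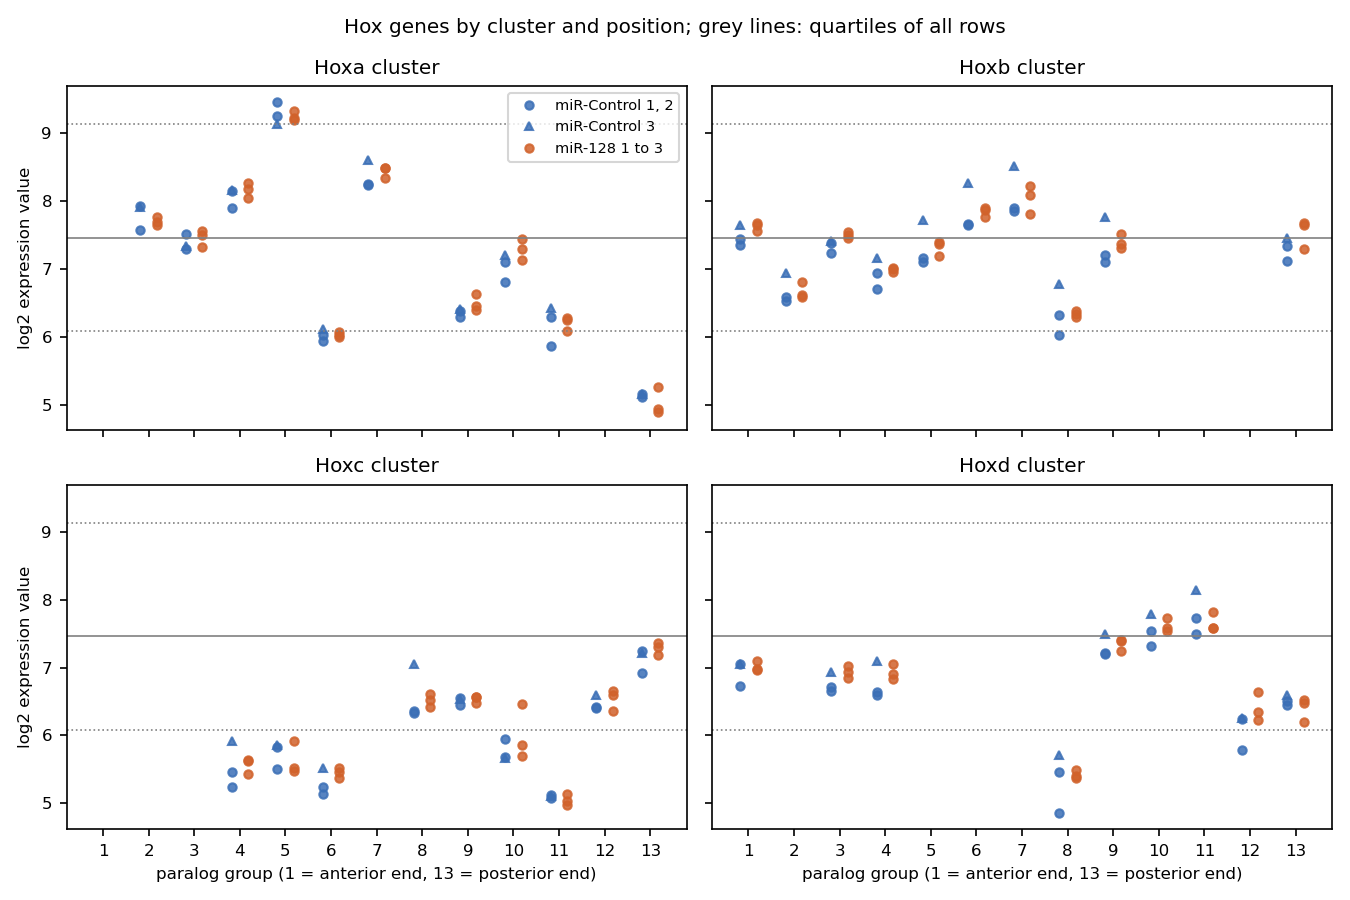
Log2 expression value (vertical axis) of 38 of the 39 Hox genes on each array, by paralog group (horizontal axis) in 4 panels for the clusters; blue circles are miR-Control 1 and 2, blue triangles miR-Control 3, orange circles miR-128 1 to 3, and grey lines the median (solid) and quartiles (dotted) of all rows. Hoxa5, with a mean of 9.27, is above the upper quartile of 9.13, and the means of all 9 Hoxc genes are below the median of 7.46.

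The anterior genes, which pattern the hindbrain, stayed close to the table median or below it. Hoxa2, which sets the identity of the second pharyngeal arch, was the highest of them with a mean of 7.76 log2 units at percentile 54.5. It gave 7.58, 7.93 and 7.92 in miR-Control and 7.65, 7.77 and 7.69 in miR-128, here and below in the order of replicates 1 to 3, so the groups overlapped. Hoxb1, a marker of the fourth hindbrain segment, was at percentile 51.4. Hoxb3 lay at 49.2 and Hoxa3 at 49.1. Hoxd1 followed at 41.3, Hoxd3 at 38.9 and Hoxb2 at 35.9.

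The central genes, which act from the rear hindbrain into the cord, held the highest member and also much of the low end. Hoxa5, a patterning gene of the neck and upper trunk, gave 9.25, 9.47 and 9.14 in miR-Control and 9.22, 9.33 and 9.20 in miR-128. It was at percentile 77.2, with all 6 values above 9, and the 2 groups overlapped fully. Hoxa7 gave 8.26, 8.24 and 8.61 in miR-Control and 8.34, 8.48 and 8.49 in miR-128, at percentile 63.8. Hoxa4 gave 8.15, 7.89 and 8.16 in miR-Control and 8.04, 8.17 and 8.27 in miR-128, at 59.7. The spread of Hoxa4 over arrays crossed into that of Hoxa7, while Hoxa5 stood clear of both on every array. Hoxb7 gave 7.89, 7.86 and 8.52 in miR-Control and 7.81, 8.10 and 8.22 in miR-128, at 59.0. Hoxb6 gave 7.65, 7.66 and 8.27 in miR-Control and 7.77, 7.87 and 7.90 in miR-128, at 55.9. In both Hoxb genes the miR-Control 3 array was the highest of the 6. These 2 genes and Hoxa4 overlapped in level. Of the other central genes, Hoxb5 was at percentile 47.5, Hoxb4 at 41.1, Hoxd4 at 38.9, Hoxc8 at 33.3 and Hoxb8 at 29.8. Hoxa6, which lies between Hoxa5 and Hoxa7 in its cluster, was only at 24.1. Hoxc5 at 19.2, Hoxc4 at 17.3, Hoxd8 at 15.5 and Hoxc6 at 15.4 closed the group.

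The posterior genes, which pattern the lumbar cord, limbs, tail and urogenital tract, had Hoxd11 and Hoxd10 at their top, at percentiles 54.0 and 52.0. Both belong to the limb and lumbar part of the Hoxd cluster. Hoxb13, a tail and prostate gene, was at 49.2, Hoxb9 at 48.5, Hoxd9 at 47.6, Hoxc13, a hair follicle gene, at 45.6 and Hoxa10 at 44.8. Lower were Hoxc9 at 32.9, Hoxc12 at 32.5, Hoxd13 at 31.8, Hoxa9 at 31.1, Hoxd12 at 27.8, Hoxa11 at 26.9 and Hoxc10 at 22.0. Hoxa13 at 12.5 and Hoxc11 at 12.3 were the lowest of all 39. Their means were 5.08 and 5.07 log2 units.

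**Figure D2:**
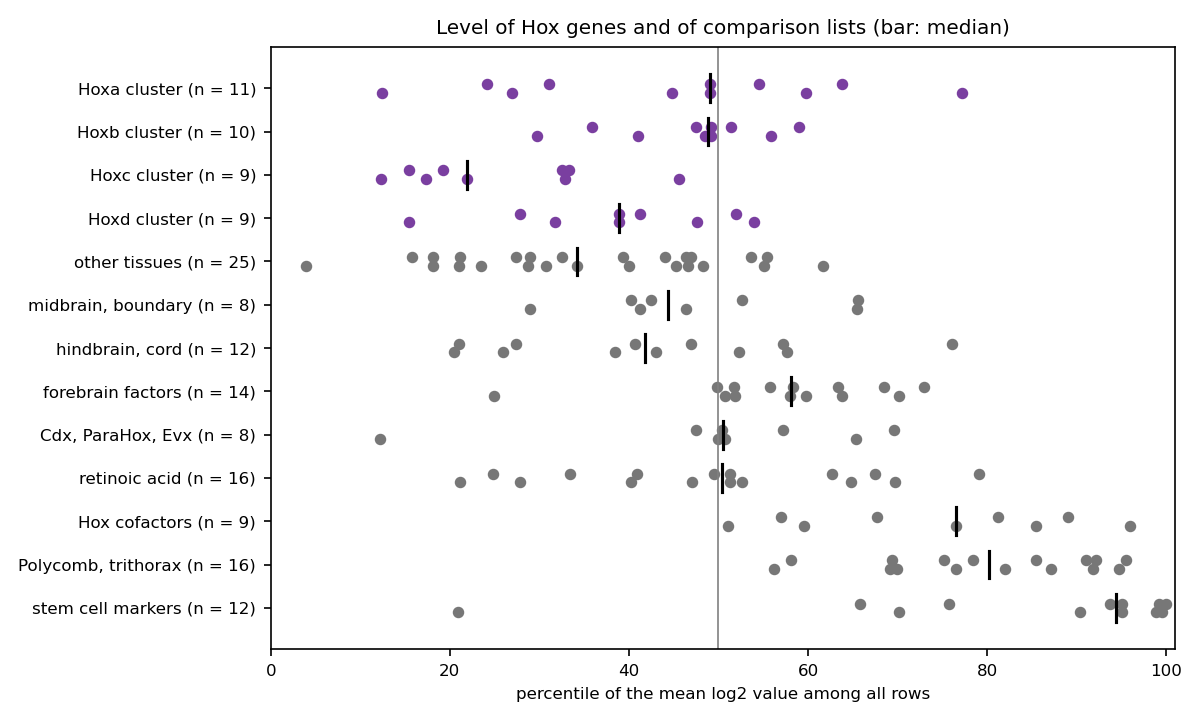
Percentile of mean signal among all 32025 rows (horizontal axis) for each gene, by cluster and comparison list, 1 dot a gene and a bar at each median; other tissues are the tissue-restricted genes. Medians run from 22.0 to 49.1 over the Hox clusters, against 34.2 for other tissues, 76.5 for cofactors and 80.2 for chromatin regulators.

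The DNA-binding partners and chromatin regulators of Hox genes gave more signal than the Hox genes. All 9 TALE cofactor genes were above the table median, with a median percentile of 76.5 and a range of 51.1 to 96.0. All 16 measured Polycomb and trithorax genes were above it too, with a median of 80.2, and Bmi1, a Polycomb complex member, was highest at 95.5. Genes of retinoic acid synthesis, breakdown and reception were spread from 21.2 to 79.1 with a median of 50.4, and Rdh10, which makes the retinoic acid precursor, was highest. The 8 homeobox relatives of the Cdx, ParaHox and Evx families had a median of 50.5, with Evx2 at the edge of the Hoxd cluster highest at 69.6.

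The comparison of miR-128 with miR-Control asked whether any Hox gene differed when the microRNA was introduced. No Hox gene passed limma's test at an adjusted p of 0.05 (0 of 39), and the lowest adjusted p among them was 0.777. The background is 0 of 32025 rows called, 0.0%. At an unadjusted p under 0.05 limma's count was 0 of 39 Hox genes, 1 row each, against 2291 rows or 7.15% of the table. The further row of Hoxa10, described below and not counted here, had a limma unadjusted p of 0.0044 and an adjusted p of 0.454. Ordinary statistics, without limma's shared variance, also gave 0 of 39, against 2037 rows, and no calls after adjustment. The median log2 difference of the Hox genes, miR-128 minus miR-Control, was 0.044, and that of all rows was 0.022. Of the 39, 26 were higher and 13 lower in miR-128 by any amount, while 56.8% of all rows were higher. With arrays brought to the same distribution by quantile normalization the split was 19 higher and 20 lower, a median of -0.00046, with 50.3% of all rows higher, and with each array centred on its median it was 21 and 18, with 48.4% of all rows higher.

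The 3 arrays a group bound the differences as follows. The 95% intervals of 37 of 39 Hox genes lay within 1.5-fold in both directions, the exceptions being Hoxc10 and Hoxd12. The most extreme ends were 1.42-fold lower for Hoxd11 and 1.60-fold higher for Hoxc10. The median standard error was 0.13 log2 units. For the highest gene, Hoxa5, the group means were 9.29 ± 0.17 and 9.25 ± 0.07 (SD, n = 3 each), and limma's difference was -0.032 (SE 0.12, adjusted p = 0.99). The differences of the next 5 genes by level were 0.070 for Hoxa7, 0.093 for Hoxa4, -0.051 for Hoxb7, -0.015 for Hoxb6 and -0.10 for Hoxa2. Each is smaller than its standard error. RMA values tend to understate ratios, above all at low signal, so these bounds apply to the array scale.

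The 5 Hox genes of smallest p were Hoxd12, Hoxa10, Hoxb13, Hoxb3 and Hoxd3, of which 3 are posterior. Hoxd12, a limb gene, gave 5.79, 6.25 and 6.26 in miR-Control and 6.34, 6.64 and 6.23 in miR-128. The miR-Control 1 array was low and the groups overlapped, with a difference of 0.31 (SE 0.16, limma adjusted p = 0.777). Hoxa10, which specifies lumbar identity, gave 7.10, 6.81 and 7.20 in miR-Control and 7.13, 7.29 and 7.45 in miR-128. Its miR-Control 2 array was low, the groups overlapped, and the difference was 0.25 (SE 0.14, limma adjusted p = 0.782). Hoxb13 gave 7.33, 7.12 and 7.45 in miR-Control and 7.30, 7.65 and 7.68 in miR-128, again with an overlap, and a difference of 0.24 (limma adjusted p = 0.813). Hoxd3 gave 6.72, 6.66 and 6.94 in miR-Control and 6.85, 7.02 and 6.93 in miR-128, overlapping through miR-Control 3, with a difference of 0.16 (limma adjusted p = 0.886). Hoxb3, a gene of the rear hindbrain, gave 7.39, 7.24 and 7.42 in miR-Control and 7.50, 7.46 and 7.54 in miR-128. It was the only Hox gene whose groups did not overlap, with a difference of 0.16 (SE 0.10, limma adjusted p = 0.857). That is 1 of 39, or 2.56%, against 11.9% of all rows, of which 6.98% were higher and 4.87% lower.

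Hoxa10 had a further row of lower signal, at percentile 22.0, which was singled out after its values were seen. It gave 5.74, 5.54 and 5.77 in miR-Control and 6.02, 6.13 and 6.14 in miR-128. All 3 miR-128 arrays were above all 3 controls, with means of 5.68 ± 0.13 and 6.10 ± 0.07 (SD, n = 3 each). The difference was 0.42 (SE 0.11), with a limma unadjusted p of 0.0044. It did not pass, with a limma adjusted p of 0.454 and a range of 0.139 to 0.9997 over the alternative settings. The further row of Hoxb3 also had groups apart, with a difference of 0.14 (limma adjusted p = 0.891).

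**Figure D3:**
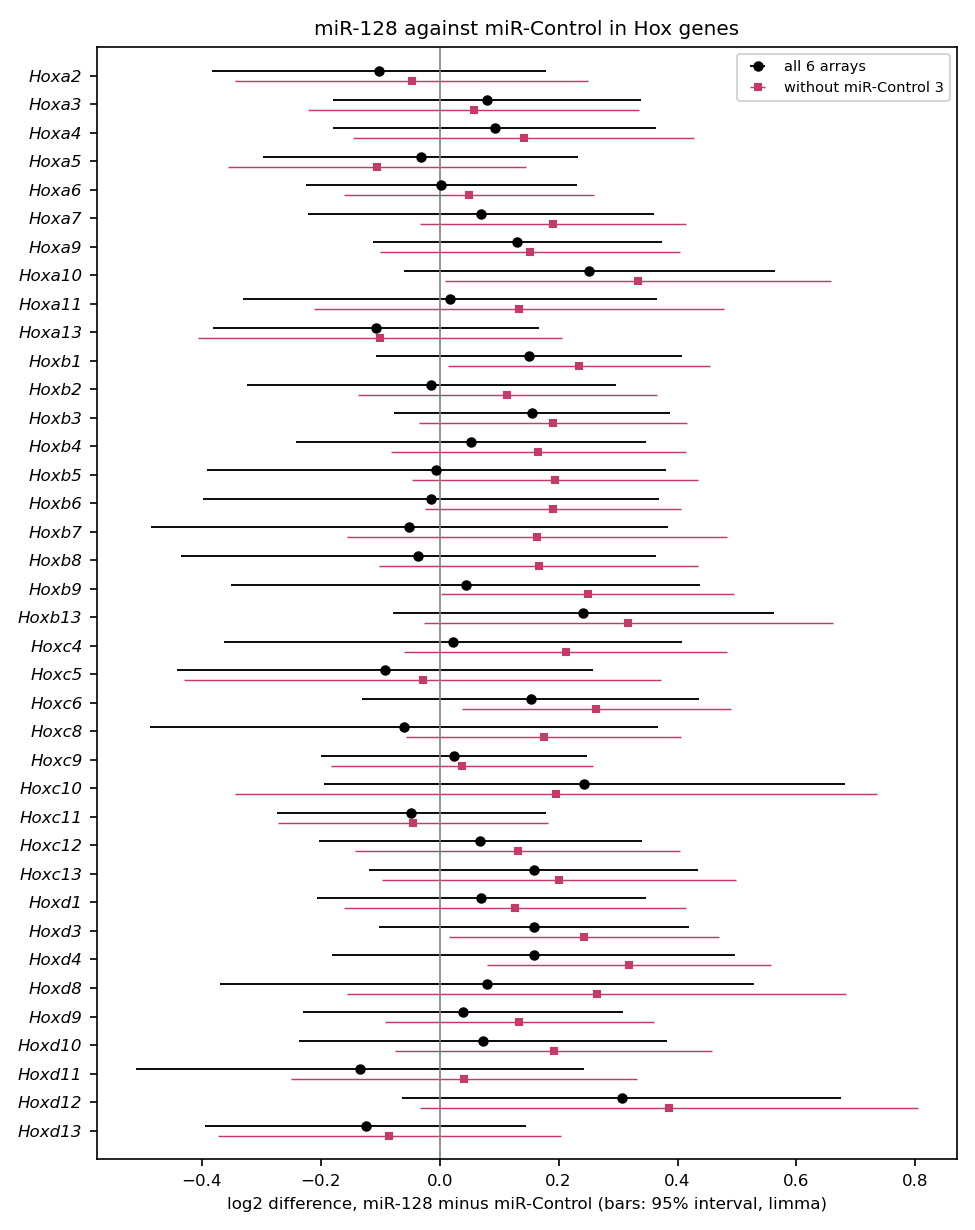
Log2 difference, miR-128 minus miR-Control (horizontal axis), for 38 of the 39 Hox genes, with limma's 95% intervals, from all 6 arrays (black circles) and without the miR-Control 3 array (red squares). With all arrays every interval includes 0 and values run from -0.13 to 0.31, and without that array 33 of all 39 lie above 0.

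One array had a large part in the spread of the Hox genes. The miR-Control 3 array stood apart from the other 5 over the whole table: its first principal component score was 42.5, against -18.7 to -0.226, on a component with 35.4% of the variance. Its interquartile range was the narrowest, 2.87 against 2.98 to 3.22 log2 units. It was the highest of the 6 arrays in 20 of 39 Hox genes, or 51.3%, against 28.7% of all rows and 33.5% of the 20775 rows within the Hox range of signal. The SD of the controls exceeded that of the miR-128 arrays in 30 of 39 Hox genes, with median SDs of 0.19 and 0.10, and in 67.4% of all rows. The miR-Control 2 array was the lowest in 24 of 39 Hox genes, or 61.5%, against 25.8% of all rows and 32.8% of rows in that range.

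The excess on miR-Control 3 was uneven between clusters, and it was large in a run of neighbouring Hoxb genes, picked out after the values were seen. The run took in central genes and the posterior gene Hoxb9. Hoxb5, Hoxb6, Hoxb7, Hoxb8 and Hoxb9 were all highest on that array, 5 of 5. It was highest in 7 of 10 Hoxb and 6 of 9 Hoxd genes, and in 4 of 11 Hoxa and 3 of 9 Hoxc genes. Hoxb5 gave 7.10, 7.16 and 7.73 in miR-Control and 7.20, 7.37 and 7.40 in miR-128. Hoxb8 gave 6.31, 6.02 and 6.77 in miR-Control and 6.33, 6.38 and 6.29 in miR-128. Hoxb9 gave 7.21, 7.10 and 7.77 in miR-Control and 7.37, 7.52 and 7.31 in miR-128. In these 3 genes the miR-128 arrays sit between miR-Control 3 and the lowest control array. Against the mean of the other 5 arrays, miR-Control 3 was higher by 0.55 log2 units in Hoxb7, 0.51 in Hoxb8, 0.50 in Hoxb6, 0.48 in Hoxb5 and 0.47 in Hoxb9. These excesses lay at percentiles 94.7 to 96.5 of the rows in the Hox range of signal, and the largest among the tissue-restricted genes was 0.53. Outside Hoxb, Hoxc8 gave 6.36, 6.33 and 7.05 in miR-Control and 6.42, 6.52 and 6.61 in miR-128, the largest excess at 0.60, and Hoxd11 had 0.50. The median excess was 0.39 for Hoxb, 0.20 for Hoxd, 0.11 for Hoxc and 0.081 for Hoxa, against 0.021 for all rows and 0.058 for rows in the Hox range of signal. The high signal was not general: on the same array Hoxa5 was lower than the mean of the others by 0.16 and Hoxc10 by 0.26. With quantile normalization these differences were -0.046 for Hoxa5 and -0.36 for Hoxc10. Single values on other arrays stood out too, with Hoxc10 at 6.46 on miR-128 3 against 5.67 to 5.94 elsewhere and Hoxd8 at 4.85 on miR-Control 2 against 5.37 to 5.71. After quantile normalization miR-Control 3 was still the highest array in Hoxb5 to Hoxb9, with excesses of 0.39 to 0.59, while the Hox count fell to 14 of 39, or 35.9%, against 24.2% of all rows and 9 of 25 tissue-restricted genes, or 36.0%.

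**Figure D4:**
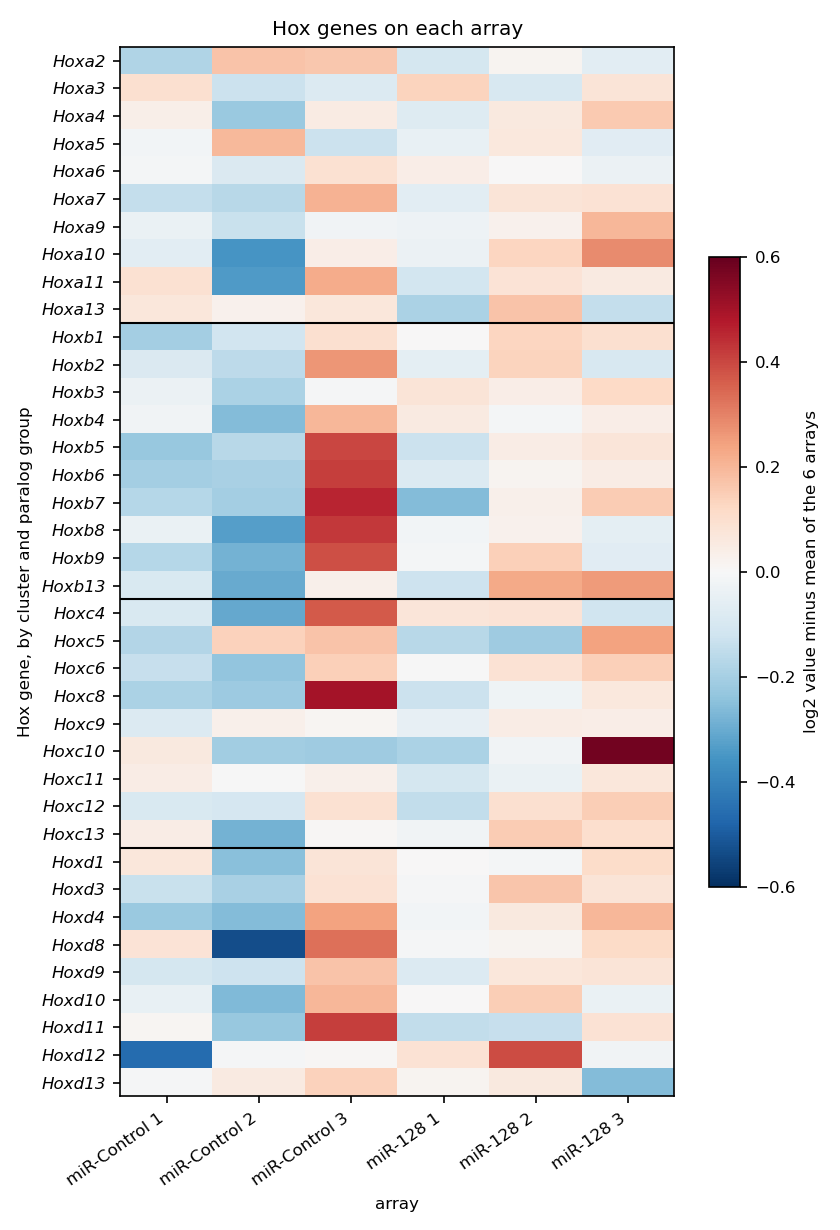
Heat map of each array's log2 value minus the mean of all 6 arrays (colour, red above and blue below), with 38 of the 39 Hox genes as rows by cluster and number and the arrays as columns. The miR-Control 3 array is highest in 20 of all 39 genes, with its largest values at Hoxb5 to Hoxb9, Hoxc8 and Hoxd11.

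Genes of other tissues moved on that array as well. It was highest in 17 of 25 tissue-restricted genes, or 68.0%, with a median excess of 0.19, close to the 0.17 of the Hox genes. It exceeded every other array by more than 0.2 log2 units in 6 of 25 tissue-restricted genes, or 24.0%, and in 9 of 39 Hox genes, or 23.1%, against 8.78% of all rows and 9.76% of rows in the Hox range. The mean of the 39 Hox genes was 6.80, 6.71 and 7.03 in miR-Control and 6.82, 6.93 and 6.94 in miR-128. That of the tissue-restricted genes was 6.58, 6.46 and 6.78 in miR-Control and 6.59, 6.62 and 6.66 in miR-128, with the highest and the lowest array the same as for Hox. The mean of the 11 mesenchyme, neural crest and vessel markers ranged from 7.21 to 7.33 in miR-Control and 7.19 to 7.32 in miR-128. The mean of the 6 microglia and blood markers was 6.10, 6.06 and 6.25 in miR-Control and 6.19, 6.20 and 6.16 in miR-128. Its highest and lowest arrays were again miR-Control 3 and miR-Control 2. So were those of the homeobox relatives, the hindbrain and cord factors, and the midbrain and boundary genes. For the cofactors and the chromatin regulators miR-Control 3 was instead the lowest array. Retinoic acid genes and forebrain factors were highest on miR-128 3. The part of these signals in the Hox values was not tested.

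Without the miR-Control 3 array the Hox genes leaned towards miR-128, still with 0 of 39 called by limma and a lowest adjusted p of 0.336. Higher in miR-128 were 33 of 39, with 61.0% of all rows higher, and the median difference was 0.17, against 0.049 over all rows. In 15 of 39, or 38.5%, both remaining controls lay below all 3 miR-128 arrays, against 21.5% of all rows, and none had the opposite order, against 12.1%. All 10 Hoxb genes were higher and 6 of them had groups apart. An unadjusted p under 0.05 was reached in limma by 6 of 39 Hox genes and 6 of 25 tissue-restricted genes, against 12.4% of all rows. The Hox genes were Hoxa10 with a difference of 0.33, Hoxd4 with 0.32, Hoxc6 with 0.26, Hoxb9 with 0.25, Hoxd3 with 0.24 and Hoxb1 with 0.23. The tissue-restricted genes leaned the same way in this setting, with 20 of 25 higher, 9 of 25 or 36.0% apart and higher, 2 apart and lower, and a median of 0.12. With all 6 arrays 15 of those 25 were higher, 0 were apart and higher, and 1 was apart and lower. Leaving out the miR-Control 2 array instead turned the lean the other way, with 18 of 39 Hox genes higher and 21 lower and a median of -0.039, against 52.5% of all rows higher and a median of 0.0084. All 5 genes from Hoxb5 to Hoxb9 were then lower by any amount, and 17 of 25 tissue-restricted genes were too, with a median of -0.070. The split of the Hox genes by direction thus changed with either of these 2 control arrays.

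In the lists that surround Hox function no gene was called either, 0 in each list by limma, and an unadjusted p under 0.05 was reached by 0 of 9 cofactors, 2 of 16 retinoic acid genes, 0 of 16 chromatin regulators and 0 of 8 homeobox relatives, against 7.15% of all rows. Of the 9 TALE cofactors 8 were higher in miR-128 and 1 lower, with a median difference of 0.16 and 2 with groups apart, where 56.8% of all rows were higher and 11.9% had groups apart either way. The oligodendrocyte lineage genes, markers of another cell type, leaned the same way, with 7 of 8 higher, 3 of 8 apart and higher, and a median of 0.24, and their part in these values was not tested. Meis1 gave 9.72, 10.23 and 10.11 in miR-Control and 10.24, 10.39 and 10.24 in miR-128, without overlap, with a difference of 0.27 (SE 0.14, limma adjusted p = 0.78). Of 16 retinoic acid genes 9 were higher and 7 lower, with a median of 0.031. The 2 of smallest p were Rarb, a retinoic acid receptor gene, with 8.15, 8.41 and 7.89 in miR-Control and 8.56, 8.45 and 8.52 in miR-128, and Aldh1a1, a retinoic acid synthesis gene. Their differences were 0.36 (SE 0.14, limma adjusted p = 0.65) and 0.32 (SE 0.12, limma adjusted p = 0.62). Of 16 chromatin regulators 10 were higher and 6 lower, with a median of 0.054, a difference of 0.24 for the H3K27 demethylase gene Kdm6a (limma adjusted p = 0.76) and 0.023 for Bmi1. Egr2, the hindbrain segment factor that activates Hoxa2 and Hoxb2 in the embryo, gave 9.07, 8.84 and 8.96 in miR-Control and 9.56, 9.19 and 9.57 in miR-128. Its groups did not overlap, and its means differed by 0.48 without passing (limma adjusted p = 0.46). Hoxa2 differed by -0.10 and Hoxb2 by -0.014.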

How the data were processed

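RNA of 6 neurosphere samples was hybridised to mouse exon arrays, 1 array a sample. The deposited table holds log2 values. The authors used affy and RMA (submitters' processing notes, no versions). RMA corrects background, brings arrays to a common scale and summarises a row's probes. The probe grouping of a row is not given in the sources used here, nor its genome build. Of 32025 rows, 25343 were named through accessions in the RefSeq gene table of GRCm38.p6, used for names and gene order only, and 3058 rows repeat the values of an earlier row. Groups and replicate numbers come from the sample titles.

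Groups were compared with limma 3.58.1 under R 4.3.3 (lmFit and eBayes, all 6 arrays, unpaired, two-sided, no filter), with Benjamini-Hochberg adjustment over all rows and a threshold of 0.05, and it was tested on simulated data. Replicates with the same number were not paired. Percentiles are ranks of a row's mean over the 6 arrays. Motifs and CpG were counted in RefSeq promoters. The members, gene lists and tests were chosen with earlier results of these data known. Some genes are counted in the totals but not reported singly here. Values by array are given for the 6 Hox genes of highest mean and the 5 of smallest p, for further Hox genes chosen after their values were seen, and for the highest member and the 2 of smallest p of each context list. No reads or counts were used, so the number of arrays limits the precision. Alternatives were median centring, quantile normalization, array weights, a filter at the table median, the mean over a gene's rows, the replicate block and leaving out each array.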

Additional observations from a re-analysis of the deposited data

How the results depend on the processing

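No alternative led to a call for a Hox gene. Over all rows limma called 4 when tested above the table median and 24 with array weights, none of them a Hox gene. The count of Hox genes with groups apart, 1 of 39, became 3 with median centring, 2 with quantile normalization, 2 with the mean over distinct rows and 0 of the 9 tested above the table median. Leaving out 1 array gave 2 to 15. The count was 4 without miR-Control 1, 2 without miR-Control 2 and 15 without miR-Control 3. It was 9 without miR-128 1, 2 without miR-128 2 and 3 without miR-128 3. Over all rows 33.5% were apart either way without miR-Control 3, against 11.9% with all 6 arrays. Without miR-Control 2, 11.4% of all rows were apart and higher and 7.68% apart and lower. All-row shares were not taken in the other settings, so those counts are not read as results about Hox genes. The number above the table median, 9, became 6 against the median of the named genes, 1 row each. It became 2 against the highest tissue-restricted gene, a reference added after seeing the data. Small differences changed sign: Hoxb7 to 0.035, Hoxb6 to 0.12 and Hoxa2 to 0.000452 with array weights. Leaving out 1 array, Hoxa5 ran from -0.11 (without miR-Control 3) to 0.058 (without miR-Control 2), Hoxb7 from -0.17 (without miR-Control 2) to 0.16 (without miR-Control 3) and Hoxb6 from -0.12 (without miR-Control 1) to 0.19 (without miR-Control 3). The cause was not tested, beyond the smaller number of arrays or genes. The replicate block gave 0 rows called, 0 Hox genes called and a median Hox difference of 0.044. The correlations of deviations between same-numbered arrays were -0.00278, 0.173 and 0.0515 for replicates 1, 2 and 3. Replicates 2 and 3 matched their own number best and replicate 1 did not. The numbers were taken as names, and these correlations do not decide whether the replicates were paired. The median Hox difference, 0.044, fell below 0 with quantile normalization (-0.00046), above the table median (-0.015) and without miR-Control 2 (-0.039), and was 0.17 without miR-Control 3. Hoxb7 and Hoxb6 also changed sign without miR-128 1, to 0.065 and 0.023.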

Other observations

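Most of the nearest flanking genes gave more signal than the median Hox gene. Beside Hoxa, Skap2 lay at percentile 91.4 of all rows and Evx1, an even-skipped homeobox gene, at 65.4. Beside Hoxd, Evx2 lay at 69.6 and the mitochondrial import gene Mtx2 at 74.9. Beside Hoxc, Calcoco1 lay at 75.2 and the DNA repair gene Smug1 at 49.8. Next to Hoxb lay rows of low signal, with the tubulin glutamylase gene Ttll6 at 20.0 and the 3 rows of Skap1 at 20.4 to 21.0. Further out on the same sides were Atp5g1 with rows at 79.5 and 40.4, Snx11 at 62.0 and 62.5 and Cbx1, a heterochromatin protein gene, at 93.8. No flanking gene was called by limma. Cbx1 and the lower Atp5g1 row had all 3 miR-128 arrays below the controls, with differences of -0.29 (limma adjusted p = 0.685) and -0.50 (limma adjusted p = 0.393). No other flanking row had groups apart, and over all rows 4.87% were apart and lower and 11.9% apart either way. In the higher Atp5g1 row the groups overlapped, with a difference of -0.030.

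Antisense transcripts inside the clusters were low, with Hoxaas3 at percentile 22.9, Hoxa11os at 24.8 and Hoxd3os1 at 29.7. The microRNA hairpin rows were lower, with Mir196a-2 at 21.1, Mir196b at 17.1, Mir10b at 5.68, Mir10a at 0.606 and Mir196a-1 at 0.297. These rows rest on short transcripts and do not measure the mature microRNAs. Mir196b differed most between the groups, by 0.55 log2 units, higher in miR-128, without passing (limma adjusted p = 0.582).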
